A study of Homo sapiens with 6 samples.

Results

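The ERK feedback phosphatases and Sprouty proteins are 9 genes: the dual-specificity phosphatases DUSP1, DUSP4, DUSP5, DUSP6 and DUSP10, and the inhibitors SPRY1, SPRY2, SPRED1 and SPRED2. They were taken from the gene table by symbol, and all 9 of 9 listed genes were present among 18164 genes and passed the filter on low counts. RNA was sequenced from LNCaP cells, an androgen-responsive human line from a lymph node metastasis of prostate cancer, labelled wild type and kept in serum-containing medium with 0.1% dimethyl sulfoxide (DMSO) in both groups. Of the 6 samples 3 had vehicle alone and 3 had enzalutamide, an androgen receptor antagonist, at 5 µM for 14 days with renewal every 72 h. Vehicle cells were collected at 70 to 80% confluency on a day that the labels do not state, and no density is stated for the treated dishes, so drug, time in culture and density cannot be told apart.

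Growth factor receptors activate RAS, RAF, MEK and then ERK, a mitogen-activated protein kinase (MAPK), and active ERK raises transcription of its own brakes. The dual-specificity phosphatases remove phosphate from both the threonine and the tyrosine of the activation loop of MAPKs: DUSP6 acts on ERK in the cytoplasm, DUSP5 on ERK in the nucleus, DUSP1 and DUSP4 are nuclear and also act on the stress kinases JNK and p38, and DUSP10 prefers JNK and p38. Sprouty proteins dampen signalling from receptor tyrosine kinases, and Spred proteins bring neurofibromin, which inactivates RAS, to the membrane.

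The promoters of 7 members were present in a RefSeq table (GRCh38.p14, 250 bases before to 50 after a start), in 12 windows of 300 bases, and 3 are shown because DUSP1 and an internal start of SPRED2 held one of the motifs searched and DUSP6, the phosphatase best known as an ERK feedback gene, held none. Capitals mark a cyclic AMP response element (TGACGTCA) or an AP-1 site (TGANTCA), both strands being searched; the motifs did not overlap each other.
DUSP1, chr5:172771146-172771445, minus strand: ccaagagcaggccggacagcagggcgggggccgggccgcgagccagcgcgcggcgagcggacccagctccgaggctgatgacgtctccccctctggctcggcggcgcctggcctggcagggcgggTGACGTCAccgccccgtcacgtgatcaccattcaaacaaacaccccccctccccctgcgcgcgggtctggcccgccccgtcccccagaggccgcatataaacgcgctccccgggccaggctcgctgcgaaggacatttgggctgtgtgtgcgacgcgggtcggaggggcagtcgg
DUSP6, chr12:89352452-89352751, minus strand: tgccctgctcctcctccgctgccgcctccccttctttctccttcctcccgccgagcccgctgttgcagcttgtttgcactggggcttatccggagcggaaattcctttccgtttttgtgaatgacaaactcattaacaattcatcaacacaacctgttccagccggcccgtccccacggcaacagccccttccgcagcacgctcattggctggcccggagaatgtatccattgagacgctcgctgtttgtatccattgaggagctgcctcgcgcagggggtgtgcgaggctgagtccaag
SPRED2, chr2:65366729-65367028, minus strand: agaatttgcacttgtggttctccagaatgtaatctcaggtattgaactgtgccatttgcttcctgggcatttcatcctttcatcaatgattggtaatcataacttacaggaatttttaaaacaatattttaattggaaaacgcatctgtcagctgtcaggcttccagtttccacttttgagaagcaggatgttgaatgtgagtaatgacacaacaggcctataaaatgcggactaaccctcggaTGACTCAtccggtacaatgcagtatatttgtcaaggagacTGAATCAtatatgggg

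The cyclic AMP response element of DUSP1 began at position -125 from the RefSeq start, and 1.85% of all 35116 windows held this motif. The DUSP1 and DUSP6 starts coincided with the 5′ ends of the genes in the deposited table. The SPRED2 window belongs to an internal start, 65859 bases downstream of the 5′ end of the gene, and held AP-1 letters at positions -6 and 35; 7.71% of all windows held that motif. The window at the main SPRED2 start, 38 bases from that 5′ end, held none of the motifs searched. An ETS motif (CCGGAAGT, in 4.14% of all windows) and the CArG box of serum response factor (1.29%) were found in 0 of the member windows. DUSP4 and DUSP5 had no window here. Gene counts do not tell which start was used, so these matches are descriptions of sequence only.

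Library totals ran from 35578160 to 42540487 counts in DMSO and from 42302153 to 52107644 with enzalutamide. KLK3, which encodes prostate-specific antigen and depends on the androgen receptor, was 2582 ± 21.5 CPM in DMSO and 194 ± 28.4 CPM with enzalutamide (SD, n = 3 per group), and the proliferation marker MKI67 was 328 ± 4.72 and 5.69 ± 0.0902 CPM; CPM is the count scaled to a common library size. Luminal markers of LNCaP cells were all measured (9 of 9 genes, 7686 to 7793 summed CPM in DMSO and 6593 to 6969 with enzalutamide). The sum hides opposite changes: 4 of the 9 rose and 4 fell (edgeR, adjusted p under 0.05), beside 30.0% and 29.2% of all genes. All 4 falls were at least 2-fold, beside 12.3% of all genes. Markers of other cells were low: 22.1 to 23.3 and 27.1 to 29.9 summed CPM for 7 of 10 fibroblast and smooth muscle markers, and 11.2 to 13.4 and 9.41 to 12.3 for 3 of 8 endothelial markers. The sum was 6.70 to 7.17 and 5.58 to 7.15 CPM for 4 of 8 genes listed as basal epithelial markers. Those 4 are not all specific to basal cells. Of 8 leukocyte markers 0 were measured. Enzalutamide replicate 1 stood apart from the others of its group by base composition. Across 13712 genes, the deviation of a library from its group mean followed the GC content of the transcript with a Spearman rho of 0.79 in enzalutamide replicate 1, -0.69 in replicate 2 and -0.66 in replicate 3; the genes share these libraries, and in DMSO rho lay between -0.42 and 0.52. Member values that lean on that library are therefore given without it too. Mitochondrial genes took 10.5, 11.2 and 10.8% of the counts in DMSO and 12.1, 13.6 and 15.7% with enzalutamide, and the groups did not overlap. With scaling factors computed without these genes, 7 members rose and 1 fell, beside 30.8% and 28.4% of all genes.

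Of the 9 members, 7 rose, 1 fell and SPRY1 did not pass the test. With enzalutamide DUSP4 fell 9.50-fold, while DUSP5 rose 4.55-fold, DUSP6 2.57-fold, SPRED1 2.01-fold, DUSP1 1.76-fold, DUSP10 1.75-fold, SPRY2 1.66-fold and SPRED2 1.22-fold (edgeR quasi-likelihood test, adjusted p under 0.05 over all genes). The background was high: 59.2% of all genes passed, 30.0% as higher and 29.2% as lower. At least a 2-fold rise with a call was found in 3 members, against 14.7% of all genes, and a 2-fold fall in 1, against 12.3%. The groups did not overlap in any of the 9 members, with enzalutamide above in 8 (33.4% of all genes) and below in 1 (33.0% of all genes). Without enzalutamide replicate 1, again 7 members rose and 1 fell, and in that fit 35.6% of all genes rose and 35.6% fell. Without DMSO replicate 2, 5 members rose and 1 fell, beside 26.0% and 25.1% of all genes. The median log2 change was 0.81 over the members and -0.00367 over all genes. In a bulk sample, fewer cells that express a gene and less RNA per cell cannot be told apart.

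**Figure D1:**
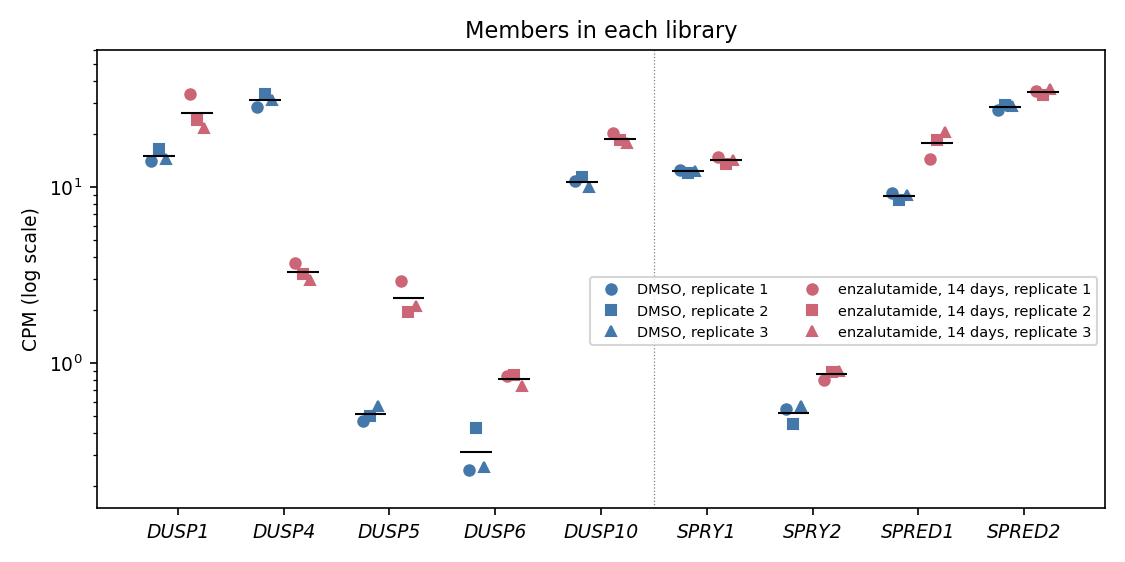
CPM of each member (log scale) in each of the 6 libraries, with DMSO in blue and enzalutamide in red, the replicate by symbol and the group mean as a black bar. DUSP4 is the only member whose enzalutamide libraries, at 2.97 to 3.69 CPM, lie below DMSO; in SPRY1 and SPRED2 the gap between the groups is narrow.

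DUSP4 (ENSG00000120875.9, chromosome 8, 29333064 to 29350684, hg38, minus strand) stood at 28.6, 33.8 and 31.4 CPM in the DMSO libraries and at 3.69, 3.19 and 2.97 CPM in the enzalutamide libraries. All 3 enzalutamide libraries were far below all DMSO libraries. The log2 change was -3.25 ± 0.14 (SE, adjusted p = 2.97e-08, edgeR), lower than that of all but 1.94% of the genes tested, and it ran from -3.33 to -3.12 over the alternatives. The authors' deposited table gives a log2 change of -3.25 as well.

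DUSP5 (ENSG00000138166.6, chromosome 10, 110497907 to 110511533, plus strand), the nuclear phosphatase specific for ERK, was rare in DMSO, at 0.465, 0.499 and 0.566 CPM. With enzalutamide it stood at 2.91, 1.95 and 2.11 CPM. The enzalutamide libraries were all higher and replicate 1 was the highest. Its log2 change was 2.19 ± 0.23 (SE, adjusted p = 2.3e-05, edgeR) and 2.00 without enzalutamide replicate 1. DUSP5 transcripts were the richest in GC among the members, at 55.9%, beside a median of 47.7% over genes; the part of base composition in its rise was not tested.

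DUSP6 (ENSG00000139318.8, chromosome 12, 89347235 to 89352501, minus strand), its cytoplasmic counterpart, rested on few reads: 9, 18 and 9 in the vehicle libraries, then 44, 45 and 31 after the drug. In CPM it stood at 0.246, 0.428 and 0.255 against 0.836, 0.851 and 0.737. The groups did not overlap, though DMSO replicate 2 was well above the other DMSO libraries. This was a log2 change of 1.36 ± 0.28 (SE, adjusted p = 0.00186, edgeR). An antisense gene of GENCODE v29 shares 1105 exon bases with DUSP6, and the strand setting of the counting is unstated in the labels, so its reads are uncertain.

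DUSP1 (ENSG00000120129.6, chromosome 5, 172768096 to 172771195, minus strand), an immediate early gene, stood at 14.1, 16.5 and 14.5 CPM in DMSO. With enzalutamide it stood at 33.7, 24.1 and 21.6 CPM. All enzalutamide libraries were higher, but they differed more among themselves than the DMSO libraries did, with replicate 1 on top. The log2 change was 0.82 ± 0.17 (SE, adjusted p = 0.00196, edgeR), and 0.62 (adjusted p = 4.99e-08) without enzalutamide replicate 1. DUSP1 transcripts also had a GC content above the median, at 55.1%.

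DUSP10 (ENSG00000143507.18, chromosome 1, 221701424 to 221742089, minus strand), the phosphatase that prefers the stress kinases, was more even. It stood at 10.9, 11.4 and 9.98 CPM in DMSO and at 20.3, 18.5 and 17.8 CPM with enzalutamide. Its log2 change was 0.81 ± 0.12 (SE, adjusted p = 0.000179, edgeR), close in size to that of DUSP1 but with a smaller spread within the enzalutamide group (6.84% against 24.2% of the mean).

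SPRED1 (ENSG00000166068.13, chromosome 15, 38252836 to 38357249, plus strand) stood at 9.22, 8.41 and 8.97 CPM in DMSO. With enzalutamide it stood at 14.4, 18.4 and 20.5 CPM. All enzalutamide libraries were higher, and replicate 1 was the lowest of them, the reverse of the order in DUSP1. It changed by 1.00 ± 0.15 (log2, SE, adjusted p = 0.000217, edgeR) and 1.15 without enzalutamide replicate 1. SPRED1 transcripts had the lowest GC content of the members, at 38.9%.

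SPRED2 (ENSG00000198369.10, chromosome 2, 65310851 to 65432637, minus strand) stood at 27.5, 29.1 and 29.02 CPM in DMSO and at 35.1, 33.5 and 36.2 CPM with enzalutamide. The shift was small but the groups did not overlap. The log2 change was 0.29 ± 0.10 (SE, adjusted p = 0.0298, edgeR). The call was lost when DMSO replicate 1 (adjusted p = 0.126), 2 (0.0922) or 3 (0.102) or enzalutamide replicate 2 (0.051) or 3 (0.0679) was left out, while the log2 change stayed between 0.26 and 0.32.

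SPRY2 (ENSG00000136158.12, chromosome 13, 80335976 to 80341126, minus strand) was sparse, at 20, 19 and 20 reads in the vehicle libraries and 42, 47 and 38 after the drug. In CPM this was 0.547, 0.451 and 0.566 against 0.798, 0.888 and 0.903. All enzalutamide libraries were higher. Its log2 change was 0.73 ± 0.23 (SE, adjusted p = 0.0172, edgeR), and the call was lost without DMSO replicate 2 (log2 change 0.63, adjusted p = 0.0801) and with DESeq2 (0.74, adjusted p = 0.0604).

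SPRY1 (ENSG00000164056.11, chromosome 4, 123396795 to 123403760, plus strand) stood at 12.5, 12.1 and 12.4 CPM in DMSO and at 14.8, 13.4 and 14.3 CPM with enzalutamide. The enzalutamide libraries were all slightly higher, by a log2 change of 0.20 ± 0.11 (SE, adjusted p = 0.142, edgeR), which did not pass. With upper-quartile scaling, which shifts the median of all genes to 0.12, SPRY1 passed (log2 change 0.33, adjusted p = 0.0266). The authors' deposited table gives a false discovery rate of 0.163 for SPRY1 and 0.0234 for SPRED2.

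**Figure D2:**
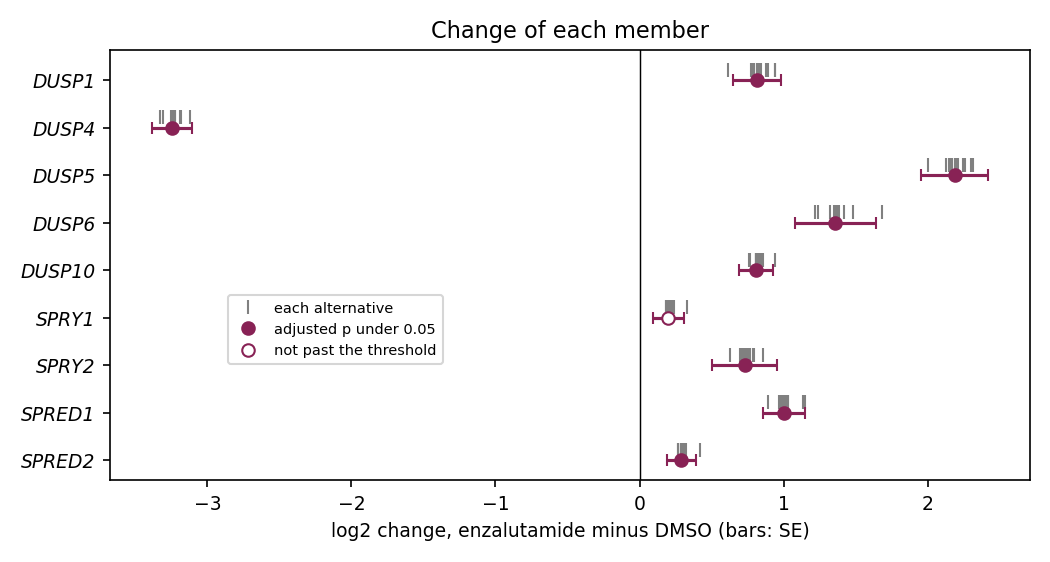
Log2 change of each member, enzalutamide minus DMSO, with its SE as a bar; filled points passed an adjusted p under 0.05 and grey ticks are the values under each alternative setting. DUSP4 lies at -3.25 and the other members between 0.20 and 2.19, and no tick crosses 0.

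Levels of different genes were compared per kilobase (RPKM, CPM divided by the gene length in kilobases). In DMSO the order was DUSP1 (7.47 RPKM), SPRED2 (5.19), DUSP4 (4.30), DUSP10 (3.797), SPRY1 (3.11), SPRED1 (1.14), DUSP5 (0.201), SPRY2 (0.162) and DUSP6 (0.0802). The libraries of DUSP4 and DUSP10 overlapped, and those of the other neighbours did not. With enzalutamide DUSP4 dropped to 0.452 RPKM, below DUSP5 (0.917), and only SPRY2 (0.269) and DUSP6 (0.209) lay lower. DUSP1 (13.2 RPKM) remained the highest, DUSP10 (6.66) and SPRED2 (6.35) overlapped, and SPRY1 (3.58) and SPRED1 (2.30) followed.

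The mix of phosphatase transcripts changed with these levels. DUSP4 made up 26.1 to 28.2% of the summed RPKM of the 5 phosphatases in DMSO and 1.97 to 2.21% with enzalutamide. DUSP1 made up 46.7 to 47.8% and 58.2 to 65.0%, and DUSP10 23.1 to 25.5% and 27.8 to 34.0%. The sum itself was 15.04 to 17.2 RPKM in DMSO and 18.4 to 25.8 RPKM with enzalutamide; the enzalutamide libraries were all above the DMSO libraries. The ratio of DUSP4 to DUSP5 was 19.4 to 23.6 in DMSO and 0.442 to 0.572 with enzalutamide. Among the Sprouty and Spred members the order of shares was the same in both groups. The ratio of SPRED1 to SPRED2 was 0.205 to 0.238 in DMSO and 0.292 to 0.403 with enzalutamide, and their summed RPKM over 4 genes was 9.52 to 9.74 and 12.1 to 13.1.

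**Figure D3:**
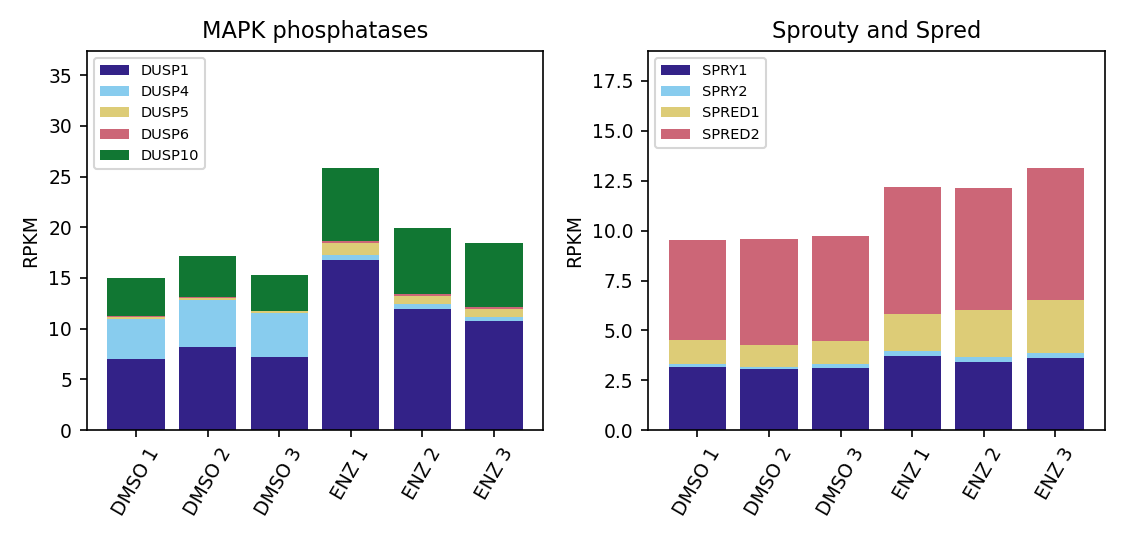
Stacked RPKM of the phosphatases (left) and of the Sprouty and Spred genes (right) in each library, labelled DMSO or ENZ (enzalutamide) with the replicate number. The DUSP4 layer, 3.93 to 4.65 RPKM in DMSO, is at most 0.507 RPKM with enzalutamide, while the DUSP1 and DUSP10 layers are taller.

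The relatives outside the 9 genes moved in both directions. Of 5 other MAPK phosphatases 3 were measured, of which 1 rose and 2 fell. DUSP9, a relative of DUSP6 that acts on ERK, fell 12.7-fold, from 1.67 ± 0.155 to 0.126 ± 0.039 CPM (SD, n = 3 per group), DUSP7, also a cytoplasmic ERK phosphatase, fell 1.67-fold, and DUSP2, a nuclear phosphatase, rose 2.31-fold. Both measured of 3 other Sprouty and Spred genes rose. SPRY4, a Sprouty gene induced by ERK signalling, stood at 48.3, 41.4 and 42.3 CPM in DMSO and at 458, 401 and 422 CPM with enzalutamide. It rose 9.71-fold (log2 change 3.28 ± 0.11, SE), and at 65.0 RPKM with enzalutamide it lay above each of the 9 members. SPRY4-AS1, an antisense gene that overlaps its locus with 0 shared exon bases, rose by a log2 change of 4.26. SPRED3 rose 2.34-fold.

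The counts over the lists that follow stand beside 30.0% of all genes that rose and 29.2% that fell, and none of them was tested against that background. Other brakes on receptor and RAS signalling rose in 6 of 12 measured genes and fell in 2, with a median log2 change of 0.28. IL17RD, a membrane inhibitor of fibroblast growth factor signalling, rose 1.70-fold, CBLB, a ubiquitin ligase, 1.54-fold and PEBP1, the RAF kinase inhibitor protein, 1.46-fold. RASA2, a RAS GTPase-activating protein, fell 1.48-fold, but this call did not survive omission of DMSO replicate 1 (adjusted p = 0.0837) or 3 (0.0733) and with upper-quartile scaling (0.0692), which leaves 1 fall in the list. None of the 12 changed by 2-fold or more with a call.

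Upstream of the brakes, receptor tyrosine kinases rose in 6 of 12 measured genes and fell in 4, with a median log2 change of 0.44. RET rose 7.46-fold from 0.143 ± 0.117 to 1.13 ± 0.0204 CPM (SD, n = 3 per group), MET, the hepatocyte growth factor receptor, rose 3.79-fold, FGFR4 fell 2.95-fold and IGF1R, the receptor of insulin-like growth factors, fell 2.10-fold. The cascade from adaptors to ERK rose in 7 of 19 (36.8%) and fell in 4 (21.1%), with a median of -0.13. Without enzalutamide replicate 1, 9 of them fell, while falls over all genes went from 5304 to 6461, or from 29.2% to 35.6%. KSR1, a scaffold of the cascade, rose 4.82-fold, GAB1, an adaptor, 4.00-fold and SOS2, a RAS exchange factor, 1.94-fold, while RPS6KA3, a kinase downstream of ERK, fell 5.63-fold.

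Genes listed here under ERK output went in both directions, and the transcript level of each need not report ERK activity. Of 13 measured, 6 rose and 5 fell, with a median log2 change of 0.43. Besides SPRY4, FOS rose 10.3-fold, from 0.144 ± 0.082 to 1.55 ± 0.213 CPM (SD, n = 3 per group). In the other direction ETV1, an ETS transcription factor that is rearranged in LNCaP cells, fell 14.4-fold and MYC fell 8.79-fold. MYC was also among the 3 protein-coding genes, of 11380 with a mean of at least 1 CPM, whose mean-centred log2 CPM over the 6 libraries lay nearest to DUSP4, at a Euclidean distance of 0.183. The others were MCM7, a replication helicase subunit, at 0.174 and SLC45A3, a prostate transporter, at 0.218. Nearest to DUSP5 were CACNA2D2 (0.157), PCDHGA8 (0.175) and TIMP2 (0.197). These distances include the difference between the groups.

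DUSP10, DUSP1 and DUSP4 act on stress kinases, and of these DUSP4 fell while DUSP1 and DUSP10 rose. Of 17 genes of the JNK and p38 cascade 7 rose (41.2%) and 6 fell (35.3%), beside 30.0% and 29.2% of all genes. Their median log2 change was 0.24. MAPK10 (JNK3) rose 17.2-fold, MAPKAPK2, a kinase activated by p38, 2.38-fold and MAPK13, a p38 kinase, 1.89-fold, while MAP3K20 fell 2.92-fold. Immediate early genes that respond to stress and handling rose in 12 of 15 and fell in 2, with a median of 0.85. FOS and EGR1 are counted both in this list and among the ERK output genes. JUNB rose 2.88-fold, EGR1 7.52-fold from a mean of 0.157 to 1.21 CPM, and BTG2 2.74-fold. Their summed level was 218 to 233 CPM in DMSO and 480, 392 and 382 CPM in the enzalutamide libraries, highest in replicate 1, as was DUSP1. The labels name both trypsin release and lysis in Trizol as the way cells were harvested. The part of stress, of handling or of the base composition of replicate 1 in the rise of DUSP1 was not tested.

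**Figure D4:**
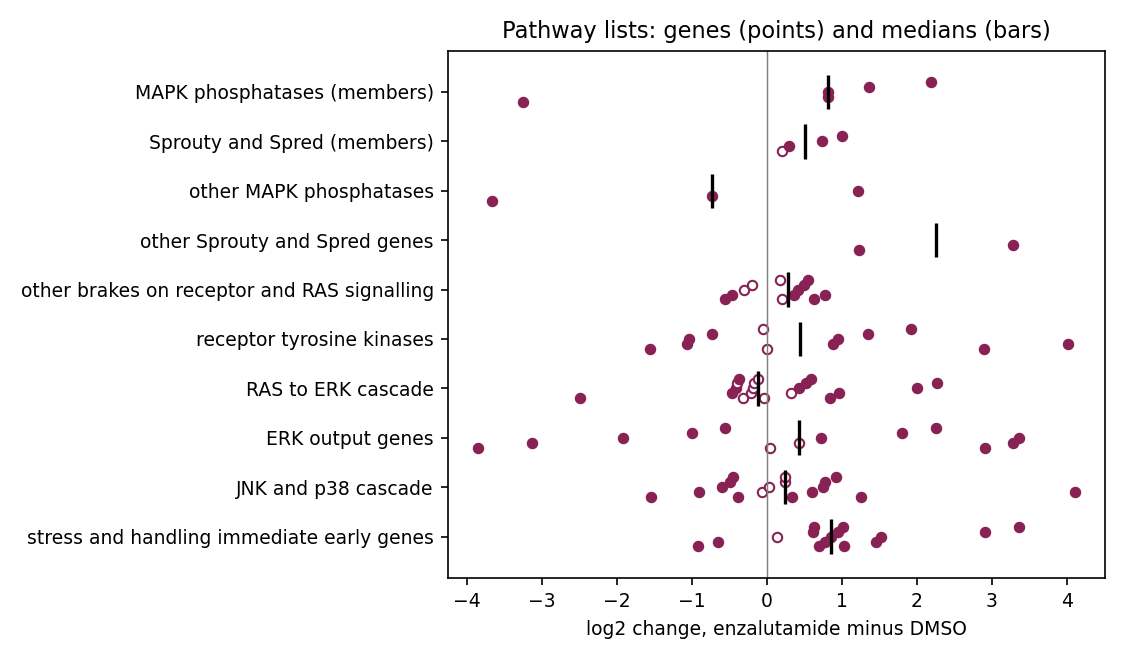
Log2 change, enzalutamide minus DMSO, of each measured gene of the pathway lists (points, filled where adjusted p is under 0.05) with the list median as a black bar; the vertical spread within a row only separates points. DUSP4 at -3.25 and DUSP9 at -3.67 lie far to the left among the phosphatases and SPRY4 at 3.28 far to the right among Sprouty genes.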

How the data were processed

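Per the submitters' processing notes, the tools included STAR 2.5, edgeR 3.20.8, featureCounts and Subread 1.6.5, with the hg38 genome; the notes used here state neither their roles nor a strand setting. The deposited table gives read counts per gene and library. It also gives the authors' log2 CPM, log2 RPKM and log2 fold changes, and their p-values, per the file headers; these were used for comparison only.

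Counts were tested with edgeR 4.0.16 (TMM scaling, filterByExpr, which removed 0 genes, robust quasi-likelihood F test on group, Benjamini-Hochberg adjustment over 18164 genes, threshold 0.05). CPM and RPKM use TMM-scaled library sizes and the deposited gene length. An SE is the log2 change divided by the root of its F statistic. Alternatives were DESeq2 1.42.0, limma-voom (limma 3.58.1), other scalings and filters, the replicate number as a block, and leaving out each library. The test was checked on simulated data. The labels do not say that replicates were separate cultures; p-values therefore reflect the spread among these 6 samples, and that spread may be technical.

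Members and lists were chosen with earlier results of these data known. From each list up to 4 genes past the threshold were named by size of change, if the higher group averaged 1 CPM or more, and lists of 5 or fewer entries were named whole. Genes missing from the table are not analysed here, and some genes are not reported here. GC content is that of the longest GENCODE v29 transcript, with a value for 97.2% of genes.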

Additional observations from a re-analysis of the deposited data

How the results depend on the processing

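Over 15 alternative settings, 493 values of members, list counts and counts over all genes were followed. Of these, 478 kept their direction and their side of the threshold or, for counts, stayed within 1.5 times. Among log2 changes 0 were reversed, a label that counts could not receive. The setting without a filter repeated the main fit, because filterByExpr removed 0 genes, so its values could not differ. SPRED2 lost its call with the replicate block (log2 change 0.29, adjusted p = 0.111) and in 5 of the 6 fits that left out a library (log2 change 0.26 to 0.32). SPRY2 lost its call with DESeq2 (0.74), and ranged from 0.63 to 0.80 when libraries were left out. SPRY1 passed with upper-quartile scaling (0.33). Rises among the Sprouty and Spred members numbered 1 to 3 without single libraries, beside rises in 25.7% to 35.6% of all genes. Over all genes, falls were 24.6% to 35.6% in those fits and 24.1% with upper-quartile scaling. Falls in the cascade from RAS to ERK numbered 2 with upper-quartile scaling and 3 to 9 without single libraries, and those among other brakes 1 with upper-quartile scaling and 1 to 3 without single libraries. The cause was not tested. DUSP6 and SPRY2, under 1 CPM in every library, left the table under the stricter filter (at least 1 CPM in 3 libraries) and have no value there. The deviations of same-numbered replicates from their group means correlated at -0.15, -0.14 and 0.051. Such deviations also followed GC content, so these correlations cannot decide whether cultures were paired. The block gave 5084 rises and 5090 falls over all genes beside 5450 and 5304. Depth limits DUSP5, DUSP6 and SPRY2, at or under 21 counts in each DMSO library. Outside the members it also limits RET, MET, KSR1, FOS, EGR1 and SPRY4-AS1, at or under 19 counts in each DMSO library. The size of the fall of DUSP9 is limited in the same way, by 6, 9 and 4 counts in the enzalutamide libraries.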

Other observations

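DUSP1 is known to be induced by glucocorticoids. Of 9 other glucocorticoid-responsive genes 8 were measured, and 4 rose and 4 fell, beside 30.0% and 29.2% of all genes. A part of glucocorticoid response in the rise of DUSP1 was not tested. SGK1, a kinase, rose 3.66-fold, while FKBP5, an immunophilin that also responds to androgen, fell 14.7-fold and CEBPD, a transcription factor, fell 3.12-fold. PER1, a clock gene matched by its gene ID because the table carries another symbol, fell 1.78-fold.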
